A study of Mus musculus with 22 samples.

Results

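GABA, the main inhibitory transmitter of the brain, was followed through 8 genes in 22 single mouse astrocytes: the GABA-A receptor subunits Gabra2, Gabra4, Gabrb1 and Gabrg1, the GABA-B receptor subunits Gabbr1 and Gabbr2, the transporter Slc6a11 and the enzyme Abat. The 8 genes were taken by symbol from a table of 23453 gene symbols, because GABA receptors are a known class of ethanol targets. The rule itself uses no measured value, but the genes were chosen with earlier results of these data known. The 3 readily detected receptor and enzyme genes were Abat, with reads in 22 of 22 cells, Gabbr1, with reads in 17, and Gabrb1, with reads in 15. Gabra4 was read in 9 cells, Gabbr2 and Slc6a11 in 4 each, Gabrg1 in 3 and Gabra2 in 2. Of the 4 genes with reads in enough cells (at least 5) to be compared, Gabbr1 was the only one whose cells separated 2 response types. It had 79.0 to 867.5 normalized counts in the 6 S-type cells and 0 to 8.33 in the 6 T-type cells. Cells of these 2 types were likewise apart for 0.783% of all genes compared. The T-type cells had 6319 to 10614 genes with a read, against 9768 to 11914 in S-type.

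The astrocytes were cultured from the cortex of C57BL/6 pups aged P0 to P1, each culture from a single pup. Shaking and cytosine arabinoside (10 µM, 12 h) served to deplete the cultures of microglia and other unwanted cells, and imaging took place 24 h after serum was withdrawn. All cells, NR included, were loaded with the calcium dye Fluo-4 and exposed to EtOH, so that no library came from an unexposed cell. ATP (100 µM) was applied at the end of each experiment, and the calcium signal was scaled to the response to it. The calcium signal sorted the cells into S-type (slow rise and slow decay, 6 cells), T-type (transient, 6 cells), M-type (mixed, 5 cells) and NR (no response, 5 cells). Each cell was drawn up singly and its RNA amplified before sequencing. No label ties a cell to an animal or a culture. Each type was therefore treated as 1 sample, no test or p-value was computed between types, and intervals cover counting error only.

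GABA-A receptors are chloride channels built from subunits drawn from several classes, most often alpha, beta and gamma, and ethanol is known to act on some of their forms. GABA-B receptors are coupled to G proteins and work as a pair of Gabbr1, which binds GABA, and Gabbr2, which carries the complex to the surface and couples it to the G protein. Astrocytes clear GABA through transporters, among which Slc6a11 (GAT-3) is the form best known from astrocytes, and Abat (GABA transaminase) breaks it down in mitochondria.

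Total counts ran from 2937786 to 22131076 per cell, and genes with a read from 6319 to 13070. The median-of-ratios size factors by which counts were divided were lowest in T-type cells 2, 3 and 4 (0.276, 0.183 and 0.548). All 12 astrocyte markers, Gfap, Aqp4 and Aldh1l1 among them, had reads in every type. Their summed level per cell was 1417 to 9248 CPM in S-type cells, 1798 to 6169 in T-type cells, 1052 to 6451 in M-type cells and 1240 to 8681 in NR cells. The 12 microglial markers summed to at most 0.492 CPM in S-type cells, 7.65 in T-type cells and 1.58 in M-type cells, and to 0.792 to 64.0 CPM in NR cells, with 51.9, 51.6 and 64.0 CPM in NR cells 1, 2 and 4. Of the 12, 11 had a read in NR (all but P2ry12), 11 in T-type (all but Tmem119), 10 in M-type and 5 in S-type. T-type cell 1 alone had reads of 11, with 29 reads of Cx3cr1. In NR cells 1, 2 and 4, Cx3cr1 had 136, 382 and 294 reads, and Ptprc had 512, 1 and 0. Of the markers of other cells, 6 to 7 of 9 oligodendrocyte lineage genes had reads in a type and summed to 32.2 to 3329 CPM per cell, with Sox10 and Gpr17 at 0 in every cell. Of 13 neuron markers 7 to 11 were read (38.1 to 2077 CPM, Slc17a7 at 0), and of 8 interneuron markers 4 to 5 (1.02 to 583 CPM, Dlx5 and Slc32a1 at 0). Of 7 endothelial markers 2 to 4 were read (0 to 200.005 CPM, Cldn5 and Cdh5 at 0), and of 9 mural cell and fibroblast markers 5 to 8 (33.9 to 7450 CPM, Rgs5 at 0). The part of such reads in the levels given here was not tested.

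The bases just before the start site are shown for Gabbr1 and Slc6a11. The cells of S-type and T-type did not overlap for Gabbr1. Slc6a11 was read mainly in NR, but in only 4 cells, under the limit of 5 cells for a comparison between types. Both windows are 250 bases of the mouse reference, taken from RefSeq on GRCm38.p6, on the plus strand at chr17:37045716-37045965 for Gabbr1 and chr6:114130991-114131240 for Slc6a11. Capitals mark the GC box, searched as GGGCGG and, for the other strand, CCGCCC.
Gabbr1: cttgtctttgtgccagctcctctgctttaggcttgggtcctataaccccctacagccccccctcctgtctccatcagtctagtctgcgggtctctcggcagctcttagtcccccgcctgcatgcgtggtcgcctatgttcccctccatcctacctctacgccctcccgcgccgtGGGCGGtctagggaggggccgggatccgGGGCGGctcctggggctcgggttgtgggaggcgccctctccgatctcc
Slc6a11: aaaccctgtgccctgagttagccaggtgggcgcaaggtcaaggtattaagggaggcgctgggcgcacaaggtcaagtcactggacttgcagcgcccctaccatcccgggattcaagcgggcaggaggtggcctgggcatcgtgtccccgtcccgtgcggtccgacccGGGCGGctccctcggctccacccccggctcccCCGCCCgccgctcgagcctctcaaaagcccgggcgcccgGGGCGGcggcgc

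The Gabbr1 window held 16 CpG dinucleotides, 66% G and C, and 2 GC box matches. The Slc6a11 window held 25 CpG, 71.2% G and C, and 3 GC box matches. A GC box match was present in 32.7% of the 32851 RefSeq promoter windows of that length, whose medians were 6 CpG and 52.4% G and C. The table held windows for 7 of the 8 genes, all but Abat. No match of TATAAA (present in 12.4% of windows) or of TGACGTCA (present in 1.55%) was found before the start of either gene. A match describes these letters and says nothing of a factor bound there.

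**Figure D1:**
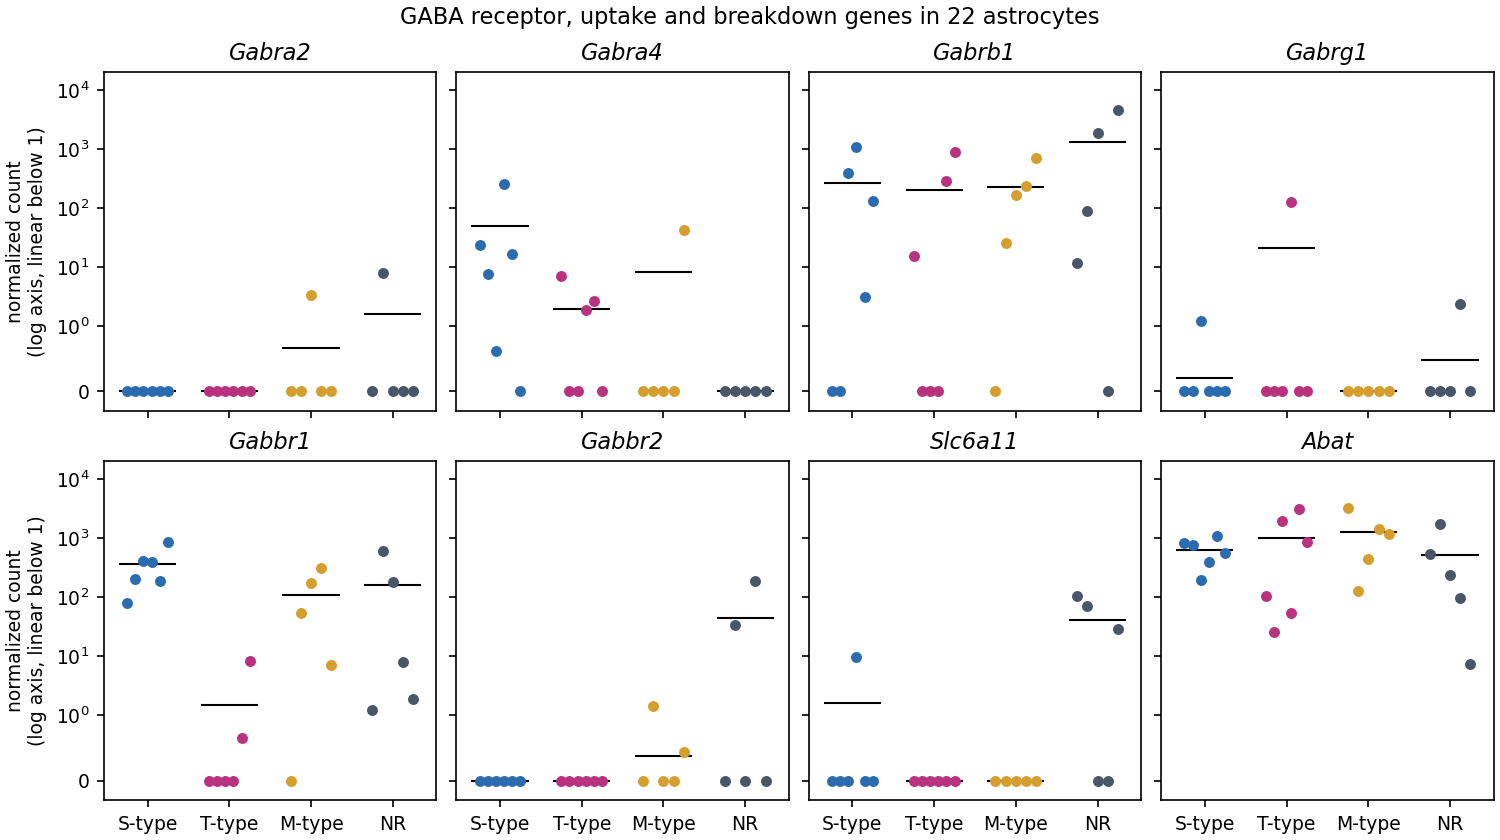
Normalized count of each of the 8 genes (y axis, logarithmic above 1 and linear below) in every cell, by response type (x axis); a point is 1 cell and a black line is the mean of the type. Gabbr1 is at 8.33 or less in the T-type cells and at 79.0 or more in the S-type cells, while Abat has reads in all 22 cells.

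The 4 GABA-A subunit genes lie together on chromosome 5, within 1398 kb. In GENCODE vM21 on GRCm38, Gabrg1 is at chr5:70751047-70842617, Gabra2 at chr5:70957597-71095849 and Gabra4 at chr5:71569749-71658308, all on the minus strand, and Gabrb1 is at chr5:71658113-72149037 on the plus strand. Gabra4 and Gabrb1 are head to head, and their gene models overlap by 196 bases, of which 46 are exonic in both. The sources used here do not state whether the counting used the strand, so reads in those 46 bases could belong to either gene. Neighbouring genes were often read in different cells: Gabrb1 was read in 15 cells, Gabra4 in 9, and both in 6.

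**Figure D2:**
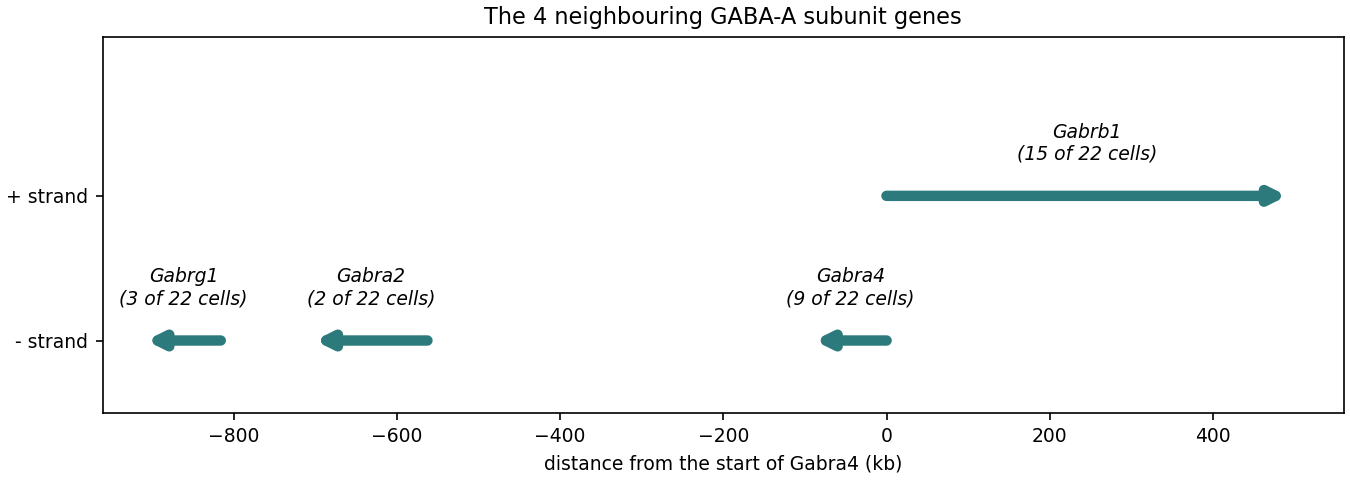
The 4 neighbouring GABA-A subunit genes, drawn to scale by distance from the start of Gabra4 in kb (x axis) and by strand (y axis); arrows point in the direction of transcription and the numbers give the cells with a read. Gabrb1, read in 15 of 22 cells, starts head to head with Gabra4, read in 9.

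Gabrb1, a beta subunit, which helps to form the GABA binding site, was the GABA-A member with the most reads. In S-type cells its normalized counts were 0, 0, 396.5, 1083, 3.14 and 133.6 for cells 1 to 6. In T-type cells they were 15.5, 0, 0, 0, 287.7 and 893.5. In M-type cells they were 0, 25.2, 165.03, 235 and 706, and in NR cells 11.5, 90.2, 1867, 0 and 4505. Every type held at least 1 cell without a read and at least 1 cell with 1236 reads or more, and the ranges of all 4 types overlapped.

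The mean level of Gabrb1 was 1295 in NR, 269 in S-type, 226 in M-type and 199 in T-type. NR cell 5 carried 69.6% of the NR level, and without it the NR level was 492. The order by medians was different, with 165.03 in M-type, 90.2 in NR, 68.4 in S-type and 7.74 in T-type. On the log2 scale the difference from NR was -2.27 (95% interval -2.34 to -2.20) for S-type, -2.70 (-2.77 to -2.63) for T-type and -2.52 (-2.58 to -2.45) for M-type. Without NR cell 5 these differences were -0.87, -1.30 and -1.12, without NR cells 1, 2 and 4 they were -3.56, -4.00 and -3.82, and the M-type difference taken over medians was 0.86, of the opposite sign. T-type against S-type gave -0.43, which ran from -2.15 without T-type cell 6 to 0.90 without S-type cell 4. Neighbours in the order of levels were thus not separated beyond the spread between cells.

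Gabra4, an alpha subunit, was read in 5 of 6 S-type cells, 3 of 6 T-type cells, 1 of 5 M-type cells and no NR cell. Its normalized counts were 23.1, 7.59, 0.609, 252, 16.5 and 0 in S-type cells 1 to 6. T-type cells 1, 4 and 5 had 7.04, 1.82 and 2.59, and M-type cell 5 had 41.5. The values of the S-type overlapped those of every other type, since S-type cell 6 had no read.

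The S-type level of Gabra4 was 50.0, of which S-type cell 4 carried 84.1%. The M-type level was 8.29 and the T-type level 1.91. NR was set to the limit that a count of 0 allows, 0.397 normalized counts (3 reads over the type). Against it the S-type level was 126-fold higher, the M-type level 20.9-fold and the T-type level 4.81-fold. These are bounds as to the NR count of 0 only, not as to the spread between cells. The T-type log2 bound was 2.26, and 1.15 without T-type cell 1. Without NR cells 1, 2 and 4 the log2 bounds were 5.36 for S-type, 2.77 for M-type and 0.65 for T-type. Without S-type cell 4 the S-type level was 9.55 and the log2 bound against NR fell from 6.98 to 4.59. The log2 difference between T-type and S-type was -4.71 (-5.78 to -3.81), and -2.32 without S-type cell 4.

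Gabra2, another alpha subunit, was read in M-type cell 3 (7 reads, 3.28 normalized counts) and NR cell 2 (14 reads, 7.94 normalized counts) and in no S-type or T-type cell. Gabrg1, a gamma subunit, had 70 reads in T-type cell 4 (127.7 normalized counts), 2 in S-type cell 3 and 4 in NR cell 4. T-type cell 4 thus held 97.3% of the Gabrg1 signal. The T-type log2 difference from NR for Gabrg1 was 5.48 (4.05 to 7.39) and 0.55 without that cell.

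Receptors need subunits of more than 1 class, so the cells were counted in which classes were read together. An alpha member (Gabra2 or Gabra4) and Gabrb1 were read together in 8 of 22 cells, and in 5 when 5 reads were required of each. An alpha member, Gabrb1 and Gabrg1 were read together in 1 cell, S-type cell 3, where Gabra4 and Gabrg1 had 1 and 2 reads. Over all alpha, beta and gamma genes, an alpha subunit was read in 17 cells, a beta subunit in 21 and a gamma subunit in 6. Reads of all 3 classes were present in 5 cells, in 3 after thinning each cell to 2937786 reads, and in 1 when 5 reads were required.

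Of the receptor genes off that chromosome, Gabbr1 is at chr17:37045966-37075067 on the plus strand and Gabbr2 at chr4:46662305-46991873 on the minus strand. Gabbr1 was, of the 4 genes compared between types, the only one whose cells did not overlap in a comparison. Its normalized counts in S-type cells 1 to 6 were 79.0, 203.8, 408, 400, 184 and 867.5. In T-type cells 1 to 4 it had no read, and T-type cells 5 and 6 had 0.648 (1 read) and 8.33 (13 reads). The lowest S-type cell was therefore above the highest T-type cell. In M-type cells the values were 0, 54.6, 175.8, 307.6 and 6.91, and in NR cells 1.21, 613.7, 182.7, 7.78 and 1.85. Both M-type and NR overlapped each of the other types.

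The level of Gabbr1 was 357 in S-type, 161.4 in NR, 109 in M-type and 1.50 in T-type. T-type was 239-fold lower than S-type, a log2 difference of -7.90 (-8.77 to -7.15). Leaving out single cells moved this difference from -11.43 (without T-type cell 6) to -7.41 (without S-type cell 6), and without T-type cells 2, 3 and 4, the ones with small size factors, it was -6.90 and the cells still did not overlap. T-type was also below NR by -6.75 (-7.63 to -6.00), and by -5.02 without NR cell 2, which carried 76.0% of the NR level. S-type was above NR by 1.15 (1.05 to 1.24), a value of 0.66 without S-type cell 6 and 2.88 without NR cell 2. M-type against NR was -0.57 (-0.68 to -0.45), and 1.17 without NR cell 2.

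The T-type cells also had fewer genes with a read, 6319 to 10614 against 9768 to 11914 in S-type, and Gabbr1 followed the number of genes read over the 22 cells (Spearman's rho 0.77, a description, with both measures from the same libraries). For Gabrb1 this rho was 0.41 and for Abat 0.02. Of cells with a like number of genes, S-type cell 1 (9768 genes) had 89 reads of Gabbr1 and NR cell 5 (9696 genes) had 2. T-type cells 1 and 4 (9760 and 9993 genes) had none, and M-type cell 1 (9272 genes) had none either. The size factors were 1.13 in S-type cell 1, and 0.710 and 0.548 in T-type cells 1 and 4. The part of gene detection in the Gabbr1 difference was not tested.

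**Figure D3:**
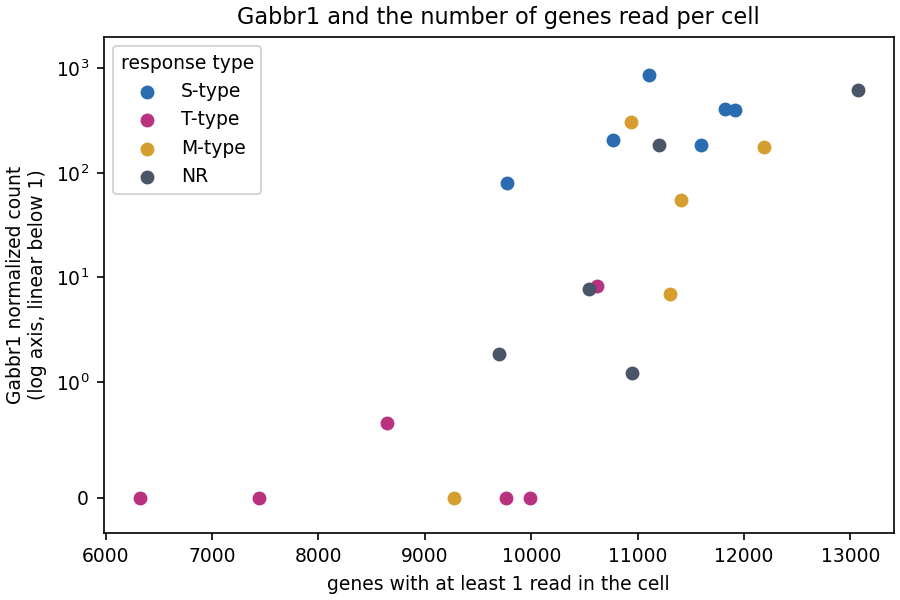
Normalized count of Gabbr1 (y axis, logarithmic above 1 and linear below) against the number of genes with at least 1 read (x axis); a point is 1 cell, coloured by response type. S-type cell 1 and T-type cell 1 lie at 9768 and 9760 genes and at 79.0 and 0 normalized counts. NR cell 5 lies at 9696 genes and 1.85 normalized counts.

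Gabbr2, the partner of Gabbr1, was read in NR cell 4 (308 reads, 184 normalized counts), NR cell 2 (59 reads, 33.5 normalized counts), M-type cell 2 (2 reads) and M-type cell 5 (1 read). NR cell 4 held 83.9% of its signal. No S-type or T-type cell had a read. With 3 reads per type in place of 0, these types were 108-fold and 70.0-fold below NR, bounds as to those zeros only. The log2 bounds of -6.76 and -6.13 shrank to -4.38 and -3.75 without NR cell 4. All 4 cells with Gabbr2 also had Gabbr1, while 13 cells had Gabbr1 without Gabbr2. With 5 reads required of both, the pair was present in NR cells 2 and 4 only. These are also cells with raised microglial markers (51.6 and 64.0 CPM). NR cell 2 had 454 reads of the neuronal gene Snap25 and 2 of Rbfox3, and NR cell 4 had 0 and 275. The neuron markers summed to 533.598 CPM in NR cell 2 and 152.907 CPM in NR cell 4, where the NR median was 208.13 CPM. S-type cell 2 and NR cell 5, without a read of Gabbr2, were higher, with 2076.84 and 627.503 CPM. They had 29179 and 6609 reads of the neuron marker Stmn2, which was read in 20 cells. NR cells 2 and 4 had 194 and 459. Nefm, another neuron marker, had 446 reads in NR cell 2, 0 in NR cell 4 and at most 3 in any other cell. Of 13 neuron markers, 9 and 8 were read in NR cells 2 and 4. S-type cell 2 and NR cell 5 had reads of 5 and 4. T-type cell 4, without a read of Gabbr2, had reads of 8. Without NR cells 1, 2 and 4 no NR cell had a read of Gabbr2. The part of these markers in the Gabbr2 signal was not tested.

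Slc6a11, at chr6:114131241-114249952 on the plus strand, was read in NR cells 1, 2 and 5, with 102.6, 71.5 and 28.7 normalized counts, and in S-type cell 4, with 9.64. No T-type or M-type cell had a read. The 3 NR cells were above all cells of the other types, and NR cells 3 and 4 had no read, as most other cells had none. The NR level was 40.6 and the S-type level 1.61, a log2 difference of -4.66 (-5.68 to -3.80) that was -6.42 without S-type cell 4 and -3.96 without NR cell 1. With 3 reads per type in place of 0, T-type and M-type were 65.2-fold and 127-fold below NR, bounds as to those zeros only. On the log2 scale these bounds were -6.03 and -6.99, and -5.33 and -6.29 without NR cell 1. NR cells 1 and 2 carry raised microglial markers and NR cell 5 does not (0.792 CPM). Without NR cells 1, 2 and 4 the NR level was 14.4, from NR cell 5 alone, and the S-type log2 difference was -3.16. The T-type and M-type bounds were then -4.53 and -5.49. The part of the microglial reads was not tested.

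Abat, at chr16:8513429-8621568 on the plus strand, was the only one of the 8 genes read in every cell, and it stayed above 5 reads in all 22. Normalized counts in S-type cells 1 to 6 were 819, 762, 196, 400, 1089 and 559.5. T-type cells 1 to 6 had 104, 25.4, 1931, 52.9, 3086 and 870. M-type cells had 3213, 126.7, 444, 1432 and 1169, and NR cells had 542, 1730, 233, 94.5 and 7.42. The S-type cells kept the narrowest range, and all 4 types overlapped.

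The level of Abat was 1277 in M-type, 1012 in T-type, 638 in S-type and 521 in NR. M-type was above NR by 1.29 on the log2 scale (1.24 to 1.34), a value of 0.61 without M-type cell 1 and 2.54 without NR cell 2. T-type was above NR by 0.96, or 0.19 without T-type cell 5. S-type differed from NR by 0.29, which ran from -0.03 without NR cell 5 to 1.54 without NR cell 2. T-type against S-type was 0.67, and -0.10 without T-type cell 5. Without NR cells 1, 2 and 4, the 3 with raised microglial markers, the NR level was 120 and the differences of S-type, T-type and M-type from it were 2.41, 3.07 and 3.41. Each of these differences was smaller than the spread between cells of 1 type.

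Levels of different genes were compared as mean CPM per kb of exonic length over the 22 cells. Over all cells Abat was highest with 9.30 CPM per kb, followed by Gabrb1 with 2.72 and Gabbr1 with 1.87. Gabra4 had 0.242, Slc6a11 0.164, Gabbr2 0.135, Gabrg1 0.0635 and Gabra2 0.00660. In the same scale the type means of Abat ran from 6.37 in NR to 14.6 in M-type, and in NR the mean of Gabrb1 was 6.61, beside the 6.37 of Abat.

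Only 4 of the 8 genes (50%) had a read in at least 5 cells, the limit for a comparison between types, against 54.2% of all symbols. These were Gabra4, Gabrb1, Gabbr1 and Abat. Since 2-fold differences were common over all genes, the counts are given beside that background. Between S-type and NR, 2 of the 4 were at least 2-fold higher (Gabra4 and Gabbr1; 25.1% of all genes tested) and 1 was at least 2-fold lower (Gabrb1; 22.5%). Between T-type and NR, 1 was higher (28.4%) and 2 were lower (32.8%). Between M-type and NR, 2 were higher (19.8%) and 1 was lower (28.1%). These 3 comparisons share the NR cells. Between T-type and S-type, none was higher (25.7%) and 2 were lower (32.5%). With mean CPM in place of size factors, the share of higher among all genes past 2-fold went from 46.4% to 33.4% between T-type and NR and from 44.2% to 30.4% between T-type and S-type.

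With only 4 genes, counts of 1 or 2 cannot be told apart from these shares. Cells of the types compared did not overlap for 1 of the 4, Gabbr1 between T-type and S-type, where this held for 0.783% of all genes. It held for none of the 4 between S-type and NR (0.412% of all genes), T-type and NR (1.01%) or M-type and NR (0.602%). The median log2 difference of the 4 was 0.72 for S-type, -0.87 for T-type and 0.36 for M-type against NR, and -2.57 for T-type against S-type. Over all genes tested these medians were 0.03, -0.07, -0.20 and -0.09.

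**Figure D4:**
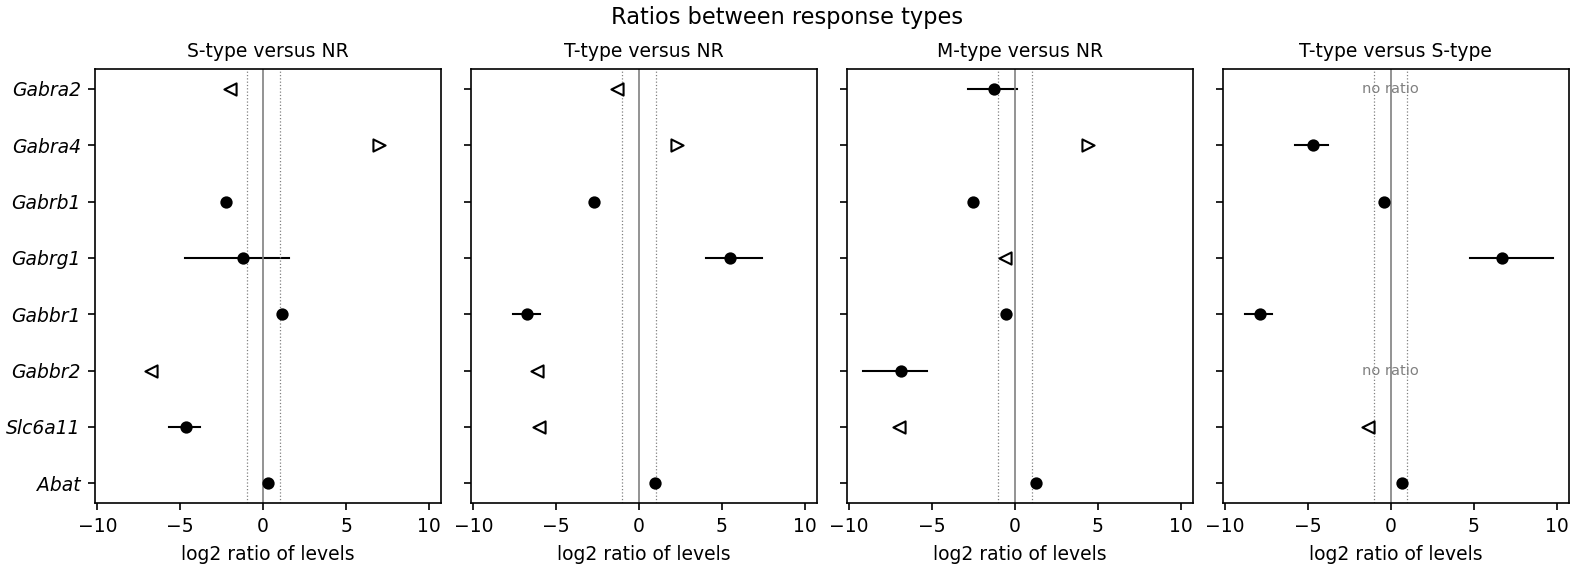
Log2 difference in level of the 8 genes (y axis) in 4 comparisons of response types (panels, first type over second); filled points carry their 95% counting interval, open triangles are bounds against a type without a read, and dotted lines mark 2-fold. The Gabbr1 point lies at -7.90 in T-type against S-type, and the Gabrb1 points lie between -2.70 and -2.27 against NR.

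The other 41 genes of the GABA lists gave the setting of these 8. Of them 35 had a read, 20 were tested and 16 had reads in at least 11 cells. At 2-fold, 4 of the 20 were higher and 3 lower in S-type than in NR (25.1% and 22.5% of all genes tested). In T-type 5 were higher and 8 lower than in NR (28.4% and 32.8%), and in M-type 3 were higher and 5 lower (19.8% and 28.1%). Between T-type and S-type, 3 were higher and 7 lower (25.7% and 32.5%). The cells of the types compared overlapped for all 20, where 0.412% to 1.01% of all genes did not overlap. Many of the differences rested on 1 cell: of those past 2-fold among the 16, 1 of 6 in S-type, 4 of 10 in T-type and 0 of 4 in M-type stayed past 2-fold against NR whichever cell was left out, and 2 of 7 between T-type and S-type. The like share over all genes is not given here, so these counts are not set against a background. Gabrd, Gabrq, Gabrr3, Kctd16, Slc6a12 and Slc32a1 (the vesicular GABA transporter) had no read. The GABA-synthesizing enzymes Gad1 and Gad2 had 6 and 7 reads in all.

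Gabrb2, a beta subunit, was read in 10 cells, with 4725 normalized counts in S-type cell 1 and 2235 in NR cell 1.

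Of the genes that traffic or cluster GABA-A receptors, Gabarap, Gabarapl1, Gabarapl2, Ubqln1 and Zdhhc3 had reads in all 22 cells. Gabarap, which binds gamma subunits, had levels of 926 in S-type cells, 1058 in T-type cells, 1416 in M-type cells and 1261 in NR cells. Gabarapl1 had levels of 1986, 2015, 981 and 1858, and Gabarapl2 of 3040, 4206, 2799 and 2128 in the same order. Ubqln1, which stabilizes GABA-A receptors, had 2399, 4584, 3529 and 3158, so that none of these 4 differed from NR by 2-fold in any type. Zdhhc3, which palmitoylates gamma subunits, had 646, 266, 628 and 282. Its log2 difference from NR was 1.20 in S-type and 1.16 in M-type, or 0.19 without S-type cell 1 and 0.14 without M-type cell 2.

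Gphn, the scaffold gephyrin, had levels of 185.3, 779, 206.5 and 367, and a log2 difference from NR of 1.09 in T-type that was -0.59 without T-type cell 4. Nlgn2, an adhesion molecule of inhibitory synapses, was low, with 13.0, 14.6, 31.6 and 21.1. Lhfpl4, a GABA-A receptor partner, had 77.2, 42.1, 94.0 and 179, and the NR level rested on NR cell 2, without which the log2 difference of T-type turned from -2.08 to 1.66 and that of S-type from -1.21 to 2.53.

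Among GABA-B receptor auxiliary subunits, Kctd12 had levels of 911 in S-type cells, 869.5 in T-type cells, 304 in M-type cells and 199.6 in NR cells, and Kctd12b had 79.9, 544, 164.8 and 121 in that order. Both were above NR in T-type (log2 differences of 2.12 and 2.17), the type in which Gabbr1 was lowest. Only 2 T-type cells had a read of Kctd12 and 3 of Kctd12b, and the differences were 0.94 without T-type cell 4 and 0.21 without T-type cell 3. Kctd12 in S-type was above NR by 2.19 and turned to -3.27 without S-type cell 2.

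Aldh5a1, which completes the breakdown that Abat begins, had levels of 338, 120, 800.5 and 464 in that same order of types, and differed from NR by -1.95 in T-type on the log2 scale (at most -1.37 with any cell left out). Aldh9a1, which makes GABA by another route, had 82.3, 583.5, 128 and 146, and was above NR by 2.00 in T-type (at least 1.08 with any cell left out). Slc12a2 (NKCC1), which loads cells with chloride, had 1218, 581, 1353 and 3027. Its log2 difference from NR was -2.38 for T-type, -1.31 for S-type and -1.16 for M-type, and without NR cell 5 it was -1.13, -0.06 and 0.09.

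**Figure D5:**
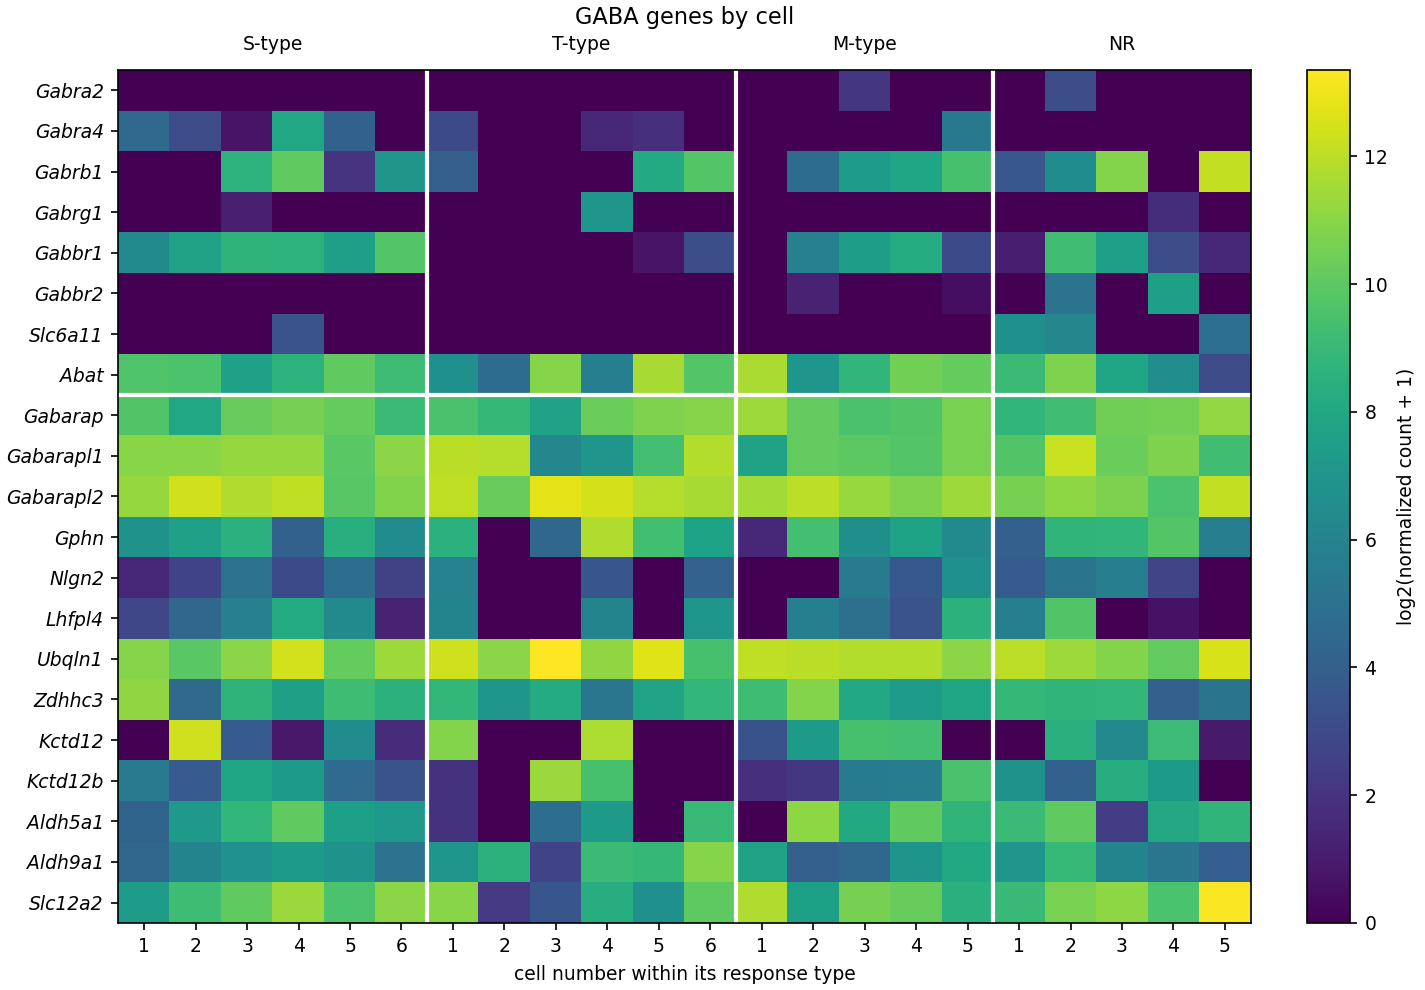
Log2 of the normalized count plus 1 (colour) of the 8 genes (above the white line) and of 13 other GABA genes (below it) in each cell (columns, by response type). Gabbr1 is dark in T-type cells 1 to 4, while Gabarap, Gabarapl1, Gabarapl2 and Ubqln1 are read in all 22 cells.

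The genes whose level was most like that of a member over the 22 cells were named by Spearman's rho among 10749 genes, as a description. They were Wfs1 (0.84) and Trim67 (0.77) for Gabrb1, Suv420h2 (0.86) and Zfp738 (0.82) for Gabbr1, and Cept1 (0.81) and Tmem37 (0.77) for Abat. The members themselves were less alike, with a rho of 0.38 between Gabrb1 and Gabbr1, 0.12 between Gabbr1 and Abat and -0.05 between Gabrb1 and Abat.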

How the data were processed

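RNA of 22 single astrocytes was measured. By the authors' methods, antisense RNA was amplified from each cell, libraries were stranded, and trimmed reads were mapped by STAR to GRCm38 and assigned to exons by VERSE, a form of HTSeq. The authors deposited the values as raw counts, 1 column per cell. No molecular identifiers were used, so amplified copies of 1 molecule count separately and intervals cover counting error only. Versions of these tools and the use of strand in counting are not given in the sources used here. The report gives the range of depth over the cells.

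The 8 genes and all gene lists were chosen with earlier results of these data known. Normalized counts are counts over size factors, the medians of ratios to the geometric mean of 3670 genes that every cell expressed (NumPy 2.4.6, pandas 2.3.3, Python 3.11.15). The level of a type is the mean over its cells. Where a type had no read, 3 reads over its summed size factors stood in for its level, and a fold against it is a bound. The 12719 genes detected in 5 cells or more were compared, leaving out in each comparison those with at most 3 reads in both types. Intervals of ratios came from the exact binomial split of reads (SciPy 1.17.1, 95%). Neither a test nor a p-value was computed, since each type counts as 1 sample. All 22 response types given in the table matched the labels, and no pair of libraries was identical. Lengths and positions came from GENCODE vM21. Ratios and intervals were tried on simulated Poisson counts with known changes in well-detected genes. Those counts held no spread between cells of a type beyond depth and counting error, so they cannot show how the steps perform with the spread seen here. Named were the 8 genes, list genes read in 11 or more cells, and for each member read in at least 11 cells the 2 genes most like it; Gabrb2, Gad1, Gad2 and the genes without a read were added after their values were seen. A few of the list genes are counted but not described here.

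Alternatives were TMM factors (edgeR 4.0.16, R 4.3.3), mean CPM, pooled CPM, cells thinned to 2937786 reads, a pseudocount of 1, medians over cells, no filter, a limit of 5 reads for detection, and leaving out each cell. Leaving out T-type cells 2, 3 and 4 (size factor under 0.6) or NR cells 1, 2 and 4 (microglial markers above 40 CPM) was chosen after the data were seen.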

Additional observations from a re-analysis of the deposited data

Results flagged for a closer look

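In 5 of the 20 sets of a gene and a type that were looked at, 1 cell lay far from the others of its type on the log2 scale, measured as its gap to the nearest cell over the whole range (Dixon's criterion). Chance gives such a cell in about 1 set in 20 where values spread evenly, but that rate does not hold here: with all other cells at 0 the criterion is met by construction, and a set was looked at only if it held 10 or more reads. The cells were NR cell 2 for Gabra2, at 7.94 normalized counts, M-type cell 5 for Gabra4, at 41.5, T-type cell 4 for Gabrg1, at 127.7, T-type cell 6 for Gabbr1, at 8.33, and S-type cell 4 for Slc6a11, at 9.64. In 4 of the 5 sets all other cells of the type had no read, and for Gabbr1 in T-type 1 other cell had a single read.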

How the results depend on the processing

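No paired analysis was possible because the labels give no replicate numbers, and no test was run. Over the 30 ratios formed, 321 were recomputed with a cell left out, of which 315 kept their sign, and 203 under other settings, of which 18 did not. Most of these 18 were exactly 0 with medians over cells, as for Gabra2, Gabrg1 and Gabbr2 against NR, and were not of the opposite sign. With medians over cells Gabrb1 in M-type against NR reversed to 0.86, Gabbr1 in M-type against NR turned from -0.57 to 2.66 and Abat in T-type against S-type from 0.67 to -1.11, and Gabbr1 in S-type against NR went from 1.15 to 5.03. Leaving out S-type cell 3 reversed Gabrg1 in S-type against NR to 0.11 (range over cells left out -1.56 to 0.11), and leaving out NR cell 2 reversed Gabra2 in M-type against NR to 0.34 (-1.94 to 0.34). Without NR cells 1, 2 and 4 Gabbr1 in M-type against NR was 0.24, and without T-type cells 2, 3 and 4 Gabrb1 in T-type against S-type was 0.57. The causes were not tested.

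For genes at least 2-fold higher in T-type than NR the count was 2 with TMM factors, 0 with thinned cells, 0 with medians, 2 without a filter, and 2 without T-type cells 2, 3 and 4. For genes higher in S-type than NR it was 1 with mean CPM, 3 with medians, and 3 without NR cells 1, 2 and 4. For genes lower in M-type than NR it was 0 with medians and 4 without a filter, and for genes lower in T-type than S-type 4 with medians and 3 without a filter. Without a filter 5 were lower in S-type and 5 in T-type than NR, and 1 was higher in T-type than S-type, as was 1 without T-type cells 2, 3 and 4. Leaving out single cells gave 1 to 3 higher and 0 to 1 lower in S-type against NR, 1 to 2 higher in T-type, 1 to 3 higher and 1 to 2 lower in M-type, and 2 to 3 lower in T-type against S-type. The counts of 3 higher arose without NR cell 2, and the 3 lower without T-type cell 6. The cells with both Gabbr1 and Gabbr2 numbered 2 with 5 reads required. Those with an alpha member, Gabrb1 and Gabrg1 numbered 0 with 5 reads required and 0 with thinned cells, and those with any alpha, beta and gamma subunit 1 and 3.

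Mean CPM moved the median log2 difference of all genes to -0.46 in T-type against NR and against S-type. Relative to these medians Gabbr1 was at -6.45 and -7.45 with mean CPM and at -6.69 and -7.81 with size factors. Genes with few reads, Gabra2, Gabrg1, Gabbr2 and Slc6a11, rest on 2 to 4 cells, and a cell without a read is not shown to lack the transcript.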
